A study of Homo sapiens with 48 samples.

Results

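The response of BEAS-2B cells to GS-5759 after 2 h was read from 8 of the 48 arrays of the series, 4 given GS-5759 at 10 nM and 4 given vehicle, with replicates numbered 1 to 4 in the sample titles. BEAS-2B is a human bronchial epithelial cell line, and all cells, controls included, had been kept without growth supplements before treatment. GS-5759 is a single molecule that activates the β2-adrenoceptor and inhibits phosphodiesterase 4 (PDE4), and the series sets it against the combination Ind/GSK, made of the β2-adrenoceptor agonist indacaterol and the PDE4 inhibitor GSK 256066, both at 10 nM. Each of the 3 treatments was sampled at 1, 2, 6 and 18 h, which gave 12 groups of 4 arrays. Expression was measured on Affymetrix arrays, on which a probe set reports a transcript as a signal on a linear scale. Members of the comparison were the 14409 genes, of 19775 with a probe set carrying exactly 1 gene symbol, whose mean level over all arrays was above a signal of 75.42.

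The β2-adrenoceptor couples to the stimulatory G protein, which activates adenylyl cyclase and raises cyclic AMP (cAMP). PDE4 enzymes hydrolyse cAMP, so an agonist and a PDE4 inhibitor act on the same messenger from its synthesis and its breakdown. Protein kinase A, activated by cAMP, phosphorylates CREB, a transcription factor bound to cAMP response elements, and the first genes to respond include nuclear receptors of the NR4A family and several feedback inhibitors of the pathway.

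Differences below are GS-5759 minus vehicle at 2 h on a log2(signal + 16) scale, given with their SE (n = 4 arrays per group), and fold changes are on that scale, which understates the change of genes of low signal. A gene was called risen or fallen where the limma test gave a Benjamini-Hochberg adjusted p under 0.05 over all genes tested. Every adjusted p below is from that limma test, in the main fit unless another setting is named. The upper quartile of the signal on the 8 arrays ran from 522.2 to 582.8. Arrays of replicate 3 stood apart from the others in all 12 groups. The basal keratin KRT14 gave signals of 186900 to 441000 on the 12 arrays of replicate 3 and 13.3 to 31.9 on the other 36, and KRT5 gave 29510 to 36310 against 108.3 to 277.4. Of the genes tested, 422 were higher and 358 were lower on all 12 arrays of replicate 3 than on all 36 others, against at most 10 in either direction for each of the other numbers. The vehicle and the GS-5759 array of replicate 3 shared this difference, and its part in the results was not tested beyond the values given without that number. Epithelial keratins KRT8 and KRT18 were present on all 8 arrays, with lowest signals of 4524 and 7863, whereas the airway club cell gene SCGB1A1 read at most 66.3 and the ciliated cell factor FOXJ1 at most 19.8. Other epithelial markers went both ways. On the 36 arrays outside replicate 3, KRT19 read at most 117.5 and EPCAM at most 147.9, but OCLN at least 1574 and TJP1 at least 2851. Among fibroblast markers, VIM and COL1A1 read at least 10560 and 7542 on the 8 arrays. COL1A2 and COL3A1 read at most 204.9 and 161.7 in the series.

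GS-5759 raised more genes than it lowered, and the rises were larger. Of the genes tested, 230 had risen (1.6%) and 120 had fallen (0.833%), 350 in all (2.43%). The median difference was 0.64 among the risen genes and -0.36 among the fallen, against -0.01 over all genes tested. At least 2-fold changes were seen in 65 of the risen genes and in 2 of the fallen, and 14 genes rose at least 4-fold. Most falls were small, with 103 of the 120 under 1.5-fold. All 4 treated arrays lay above all 4 vehicle arrays in 218 of the 230 risen genes, where 2.98% of all genes tested did so, and below them in 102 of the 120 fallen genes, where 5.39% did so. The split depended on scaling: 210 genes rose and 277 fell when arrays were centred on their 75th percentile, and 220 rose and 233 fell after quantile normalization. With the replicate number as a block, 760 rose (5.27%) and 584 fell (4.05%), including all 350 genes called without it. Without replicate 3 the counts were 290 and 66, which shared 196 of the risen and 43 of the fallen genes. Leaving out 1 array took the falls to 73 without vehicle replicate 2, 78 without GS-5759 replicate 1 and 56 without GS-5759 replicate 3.

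**Figure D1:**
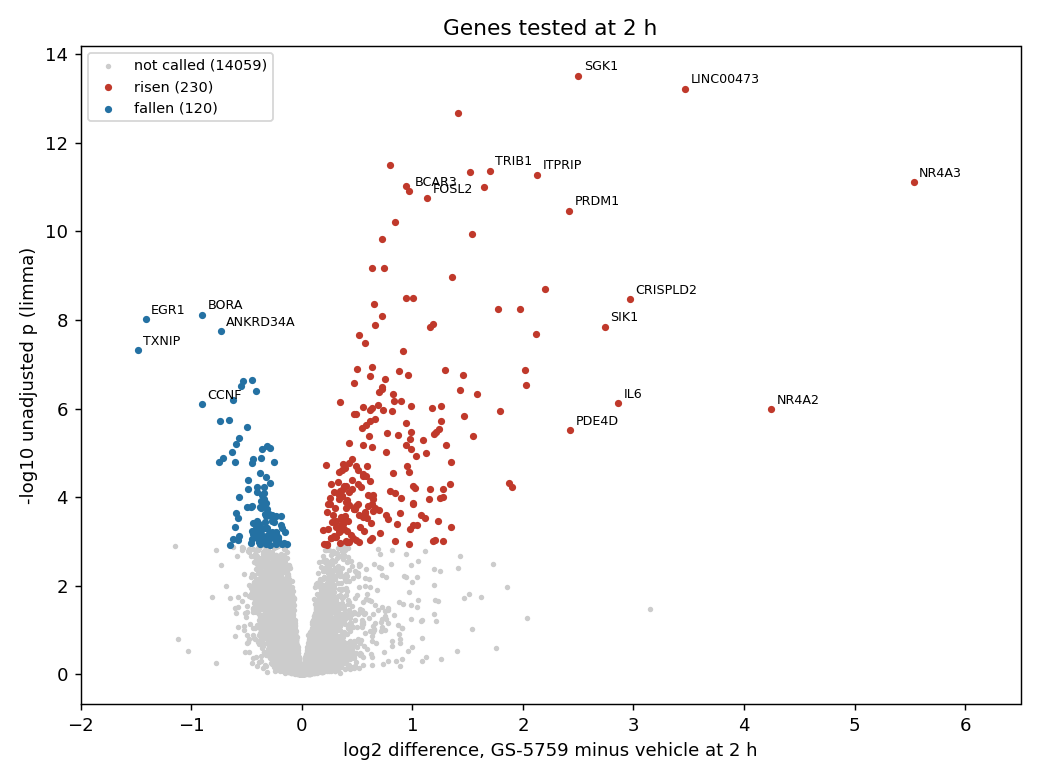
Each point is 1 of the 14409 genes tested at 2 h. The x axis gives the log2 difference between GS-5759 and vehicle and the y axis -log10 of the unadjusted limma p; red points had risen (230), blue had fallen (120) and grey were not called (14059). NR4A3 lies farthest right at 5.53, and the falls end at TXNIP with -1.49.

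The 3 NR4A genes, orphan nuclear receptors that act as transcription factors without a known hormone, all rose. NR4A3 gave signals of 41.2, 35.4, 14.85 and 18.1 on vehicle replicates 1 to 4 and 3208, 1270, 3115 and 1083 on GS-5759 replicates 1 to 4. All vehicle values were low and all treated values high, with replicates 1 and 3 the highest of the treated. The difference was 5.53 ± 0.57 (46.3-fold; adjusted p = 1.42e-08), the largest among the called genes. Because the vehicle signals were low, this size depended on the pseudocount: it was 6.20 with a pseudocount of 1 and 4.46 with 64.

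NR4A2 read 85.7, 71.8, 113.4 and 81.9 with vehicle and 3250, 995.6, 5397 and 796.6 with GS-5759. The treated arrays spread over a wider range than those of NR4A3, again with replicates 1 and 3 on top, and did not overlap with vehicle. NR4A2 rose by 4.24 ± 0.73 (18.9-fold; adjusted p = 0.000204). NR4A1 rose from 191.5, 198.8, 110.7 and 121.3 to 953.3, 523.4, 859.7 and 456.5, a smaller difference of 2.03 ± 0.33 (4.09-fold; adjusted p = 7.99e-05). A dimmer probe set of NR4A1 gave -0.17 (adjusted p = 0.642), while another gave 2.22 (adjusted p = 9.11e-07). The latter and the NR4A1 probe set used are of the type that can cross-hybridise. So is the probe set used for NR4A2, for which other probe sets gave 4.04 and 4.36. Without replicate 3 the differences were 5.16 for NR4A3, 3.86 for NR4A2 and 1.78 for NR4A1.

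**Figure D2:**
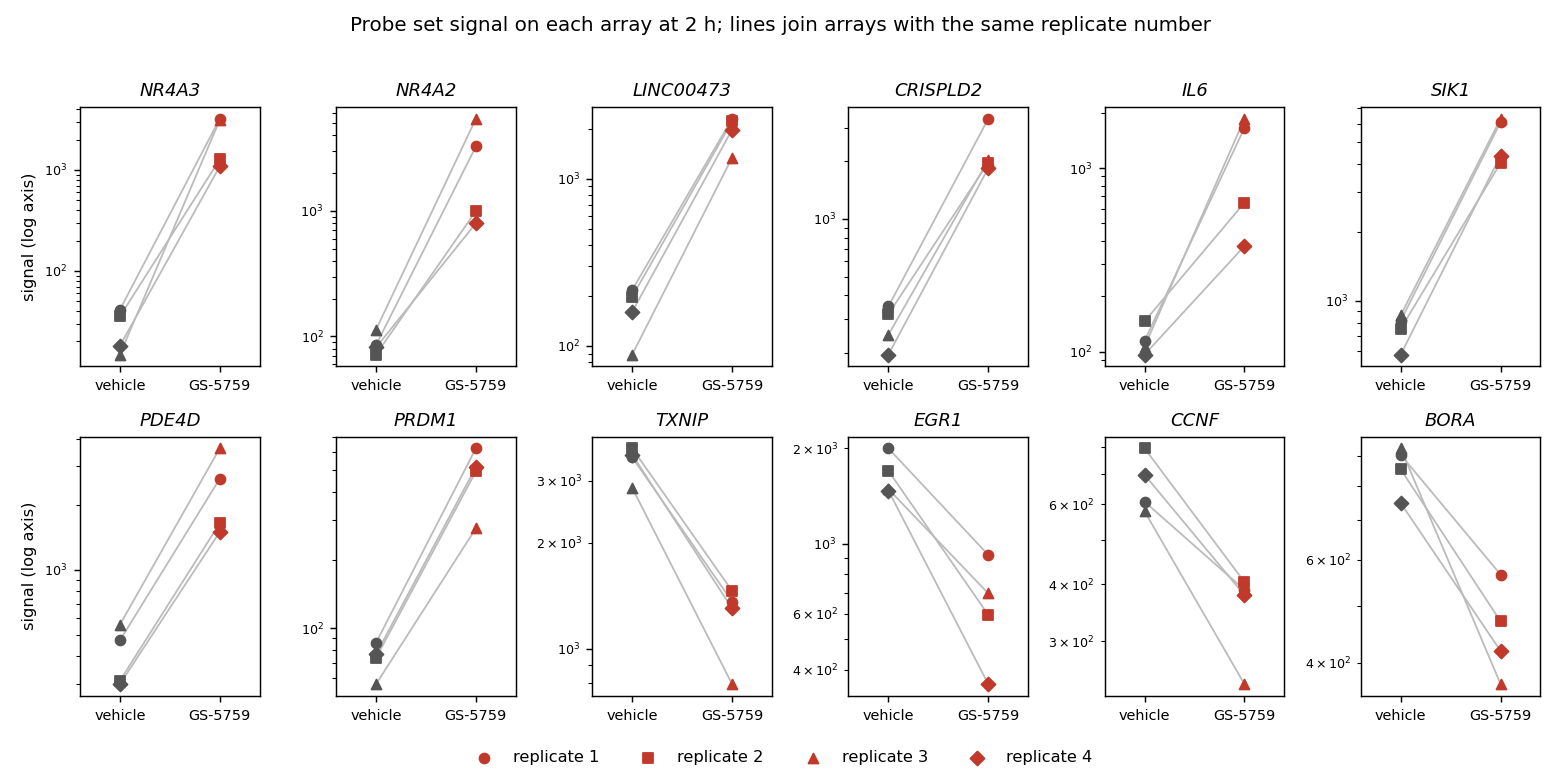
Probe set signals on the 8 arrays for 12 genes, each panel with its own log axis, vehicle in grey and GS-5759 in red. Marker shapes give the replicate number and lines join arrays of the same number. Every line rises in the 8 genes from NR4A3 to PRDM1 and falls in TXNIP, EGR1, CCNF and BORA, and no treated array overlaps a vehicle array in these panels.

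CREB binds the palindrome TGACGTCA, the full cAMP response element, or its shorter form TGACG, which each full element also contains. Both were searched on both strands. RefSeq promoter windows (GRCh38.p14; 250 bases before to 50 after a transcription start) were found for 11547 of the genes tested, 189 of the risen and 94 of the fallen. The full element was present in a window of 15 risen genes (7.94%), 5 fallen genes (5.32%) and 3.46% of all genes with a window. The short form was found in 96 risen genes (50.8%), 31 fallen genes (33.0%) and 38.2% of all. Risen genes had more windows each, 341 for 189 genes, and per window the full element was in 4.69% of risen, 4.0% of fallen and 2.56% of all, and in 2.97% for genes risen at least 2-fold. The short form was in 35.2% of windows of risen genes, 24.8% of fallen and 30.1% of all. These matches are descriptions of letters in a window, and binding was not measured. Of the 20 largest rises, 18 had a window and none of these held the full element. Upstream sequences of the 3 genes among them with at least 3 short forms in a window follow, the 250 bases before the start written 5′ to 3′ on the gene's strand with the short form, or its reverse complement where it lies on the other strand, in capitals, at chr9:99821635-99821884 (+) for NR4A3, chr21:43427132-43427381 (-) for SIK1 and chr19:53554577-53554826 (+) for ZNF331.
NR4A3: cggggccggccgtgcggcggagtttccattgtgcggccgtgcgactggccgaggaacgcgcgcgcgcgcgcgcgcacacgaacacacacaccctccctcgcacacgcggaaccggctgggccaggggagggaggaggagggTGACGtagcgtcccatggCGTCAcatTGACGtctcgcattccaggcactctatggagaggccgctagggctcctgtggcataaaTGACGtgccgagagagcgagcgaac
SIK1: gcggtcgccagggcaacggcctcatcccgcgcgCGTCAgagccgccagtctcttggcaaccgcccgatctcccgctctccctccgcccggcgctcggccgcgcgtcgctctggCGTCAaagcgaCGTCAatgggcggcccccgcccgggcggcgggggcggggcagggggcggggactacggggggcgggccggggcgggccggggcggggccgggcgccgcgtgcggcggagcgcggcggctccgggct
ZNF331: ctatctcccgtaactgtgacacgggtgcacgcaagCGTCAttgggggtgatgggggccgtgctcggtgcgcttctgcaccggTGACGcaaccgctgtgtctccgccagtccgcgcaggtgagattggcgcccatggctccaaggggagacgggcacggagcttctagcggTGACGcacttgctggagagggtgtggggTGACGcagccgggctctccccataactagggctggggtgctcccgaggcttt
The 4 short forms of NR4A3 began 109, 91, 83 and 25 bases before the start. NR4A3 and SIK1 had 1 window each. ZNF331 had 6, all with a short form, and the window shown was picked for holding the most. SIK1 and ZNF331 were shown after their motif counts were seen, and so were the upstream sequences of the 2 largest rises with the full element, CHMP1B at chr18:11851163-11851412 (+) and MAFF at chr22:38201744-38201993 (+).
CHMP1B: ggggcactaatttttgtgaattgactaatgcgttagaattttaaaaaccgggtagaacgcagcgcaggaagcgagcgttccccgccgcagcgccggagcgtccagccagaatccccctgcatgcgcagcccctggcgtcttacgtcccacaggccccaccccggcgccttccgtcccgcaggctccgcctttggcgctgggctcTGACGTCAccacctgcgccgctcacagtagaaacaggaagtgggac
MAFF: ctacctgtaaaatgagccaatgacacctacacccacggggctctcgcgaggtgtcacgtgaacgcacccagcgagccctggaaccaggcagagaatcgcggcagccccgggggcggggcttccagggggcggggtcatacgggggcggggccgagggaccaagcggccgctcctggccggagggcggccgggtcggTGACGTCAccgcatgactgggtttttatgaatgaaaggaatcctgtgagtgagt
The element lay 46 bases before the start in CHMP1B and 54 in MAFF, and both genes rose: CHMP1B, a subunit of the ESCRT membrane-remodelling complex, by 1.58 ± 0.26 and MAFF, a small basic leucine zipper factor, by 1.47 ± 0.26.

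The list of cAMP-CREB target genes had the largest share of called members of the lists examined: 13 of 19 tested members rose, none fell, and the median difference was 1.52. The lists were written with earlier results of these data known, so this ranking is a description and not a test. Over all genes tested 1.6% had risen and 0.833% had fallen, and with the replicate block 5.27% and 4.05%. Counts of this and the later lists are read against these shares. LINC00473, a cAMP-responsive long non-coding RNA, read 216.2, 197.1, 88.8 and 160.2 with vehicle and 2287, 2211, 1337 and 1969 with GS-5759. Its 4 treated arrays stood far above vehicle, with replicate 3 lowest in both groups, and it rose by 3.47 ± 0.30 (11.1-fold; adjusted p = 4.37e-10). SGK1, a kinase that regulates ion transport, rose from 746, 1229, 563.1 and 1106 to 6436, 4922, 4005 and 4937, or by 2.50 ± 0.21 (5.67-fold; adjusted p = 4.37e-10). The lowest treated array of SGK1 was above 3 times its highest vehicle array. The bHLH repressor BHLHE40 rose by 1.15 ± 0.27 (adjusted p = 0.00845). Its call was lost without GS-5759 replicate 3 (adjusted p = 0.0704) but kept without replicate 3 in all groups (adjusted p = 0.00483). Leaving out replicate 1 in all groups lost it too. The early factors FOS (1.52 ± 0.60; adjusted p = 0.232) and ATF3 (1.08 ± 0.56; adjusted p = 0.449), both of this list, did not pass the test in the main fit. Its counts were 13 under both other scalings and without replicate 3, and 17 with the replicate block.

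Genes that limit the cAMP signal were among the largest rises. PDE4D, one of the enzymes that GS-5759 inhibits, read 473.4, 308.8, 559.1 and 298.2 with vehicle and 2627, 1639, 3627 and 1495 with GS-5759. Replicates 1 and 3 were the highest in both groups, so the gain within each number was alike, and the groups did not overlap. PDE4D rose by 2.43 ± 0.44 (5.38-fold; adjusted p = 0.000481). Other tested PDE4D probe sets gave 2.015, 2.09 and 2.307, but another gave 0.09 (adjusted p = 0.945). PDE4B rose from 301.9, 389.2, 284.7 and 349.4 to 660.1, 617.3, 856.6 and 602.2, or by 1.01 ± 0.24 (adjusted p = 0.0102). The call was lost without GS-5759 replicate 3 (adjusted p = 0.0629) but kept without replicate 3 in all groups (adjusted p = 3.95e-05). Leaving out replicate 1, 2 or 4 in all groups lost it too. Another PDE4B probe set gave 0.77 (adjusted p = 0.0552). PDE4A was not called, with 590.4, 556.4, 578.3 and 570.5 against 682.3, 606.6, 575.5 and 591.9 and a difference of 0.09 ± 0.08 (adjusted p = 0.747). PDE4C was not analysed here. These 2 were the only phosphodiesterases called of 16 tested (median 0.09), and PDE7B, which hydrolyses cAMP too, gave 0.05 ± 0.21.

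SIK1, a salt-inducible kinase that keeps the CREB coactivators out of the nucleus, read 818.4, 754.4, 865.3 and 580.9 with vehicle and 6093, 4030, 6295 and 4342 with GS-5759, the treated arrays all more than 4 times the highest vehicle array. It rose by 2.74 ± 0.38 (6.70-fold; adjusted p = 6.36e-06). SIK2 rose from 493.4, 485.6, 550.4 and 528.5 to 1318, 917.1, 1815 and 894.4 (1.18 ± 0.20; adjusted p = 0.000194). CREM, a CREB relative whose gene also encodes repressor forms, rose by 0.47 ± 0.11 (adjusted p = 0.0126) and lost its call without vehicle replicate 1, GS-5759 replicate 1 or GS-5759 replicate 3 (adjusted p up to 0.118). With these 3, the list of the CREB family, its coactivators and salt-inducible kinases had 3 of 12 risen, 4 with the replicate block and 2 without replicate 3.

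RGS2, which speeds the shut-off of Gq signalling, was the RGS gene called of 12 tested (1 risen and 1 fallen with the replicate block). It read 1261, 1260, 757.2 and 1082 with vehicle and 7818, 4423, 4567 and 3824 with GS-5759, with no overlap, and rose by 2.20 ± 0.28 (4.59-fold; adjusted p = 1.46e-06). Upstream of these genes little passed the test. None of 18 receptor, G protein, cyclase and EPAC genes was called (median 0.01; 2 risen and 1 fallen with the replicate block). Of 18 protein kinase A subunits, inhibitors and anchors, 1 was called, the anchor AKAP12 (0.56 ± 0.15; adjusted p = 0.03). Its call was lost in 5 of the 8 fits without 1 array (adjusted p up to 0.169). With the block, 2 had risen, AKAP12 among them (adjusted p = 9.31e-06).

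Among anti-inflammatory and bronchoprotective effector genes, 10 of 21 rose and none fell (median 0.65; 15 risen with the replicate block). Of all genes tested 1.6% had risen, and 5.27% with the block. CRISPLD2, a secreted protein that binds lipopolysaccharide, read 348.6, 317.8, 247.7 and 195.3 with vehicle and 3344, 1971, 2032 and 1844 with GS-5759. Replicate 1 was the highest in each group, and the lowest treated array was more than 5 times the highest vehicle array. The rise was 2.97 ± 0.39 (7.83-fold; adjusted p = 2.15e-06), although a second, dimmer probe set gave -0.17 (adjusted p = 0.455). PRDM1, the transcriptional repressor Blimp-1, rose from 86.1, 73.8, 56.5 and 76.7 to 623.1, 492.8, 276.1 and 514.1 (2.42 ± 0.26, 5.35-fold; adjusted p = 3.78e-08), with replicate 3 lowest in both groups. CD200, a surface protein that restrains myeloid cells, rose from 842.5, 931.3, 435.2 and 914.6 to 3438, 3895, 2367 and 3761 (2.12 ± 0.30; adjusted p = 8.58e-06) with the same replicate lowest. DUSP1, a phosphatase that inactivates MAP kinases, started from a high level, 8508, 8716, 6230 and 7997, and rose to 12900, 12070, 11400 and 12110 (0.63 ± 0.10; adjusted p = 4.22e-05). Another DUSP1 probe set, of the type that can cross-hybridise, gave 1.34 (adjusted p = 1.56e-06), and a dimmer one 0.08 (adjusted p = 0.904). The list shares the NR4A genes, RGS2 and DUSP1 with the cAMP-CREB list, so the counts are not independent.

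Glucocorticoid-inducible genes, included because β2-agonists and glucocorticoids are given together, had 4 of 18 risen and none fallen (median 0.41; 11 risen with the replicate block). These were CRISPLD2, SGK1, DUSP1 and CEBPD, a C/EBP transcription factor. CEBPD read 5155, 5008, 6124 and 4034 with vehicle and 8679, 8316, 11190 and 7246 with GS-5759 (0.80 ± 0.18; adjusted p = 0.00638). This call was lost without GS-5759 replicate 3 (adjusted p = 0.054) but kept without replicate 3 in all groups (adjusted p = 0.000252). Leaving out replicate 1 or 2 in all groups lost it too. The glucocorticoid targets FKBP5 and TSC22D3 gave -0.01 (adjusted p = 0.999) and 0.06 (adjusted p = 0.949). CDKN1C, an inhibitor of cyclin-dependent kinases, gave 1.62 ± 0.66 and did not pass in the main fit (adjusted p = 0.249).

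Inflammatory cytokines, chemokines and adhesion molecules had 3 of 14 risen and none fallen (median 0.32; 4 risen with the replicate block). IL6, a cytokine of the acute-phase response, read 114.4, 146.1, 106.5 and 96.3 with vehicle and 1654, 646.8, 1854 and 375.4 with GS-5759. As in the NR4A genes, treated replicates 1 and 3 were the highest, and replicate 4 the lowest. IL6 rose by 2.86 ± 0.48 (7.26-fold; adjusted p = 0.000167), and by 2.50 without replicate 3. The neutrophil chemokine CXCL2 rose from 78.6, 65.9, 120.1 and 64.5 to 520, 252.4, 581.8 and 160.4 (1.87 ± 0.41; adjusted p = 0.00463), and IL15, a lymphocyte growth factor, by 0.90 ± 0.15 (adjusted p = 0.000156). CXCL2 shares sequence with related chemokine genes, its probe set is of the kind that can detect more than 1 transcript, and another probe set gave -0.05 (adjusted p = 0.974). CXCL8 gave 0.37 (adjusted p = 0.727), ICAM1 0.04 (adjusted p = 0.999) and CCL2 1.11 (adjusted p = 0.0619). Of the NF-kappaB subunits and feedback inhibitors, 3 of 14 rose (median 0.11; 5 risen and 1 fallen with the replicate block): REL by 0.91 ± 0.14, NFKBIZ by 0.73 ± 0.12 and NFKB2 by 0.42 ± 0.09. None of 13 prostaglandin synthesis and receptor genes was called (median -0.10; 1 risen and 1 fallen with the block).

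Immediate early genes, which respond to many stimuli without new protein synthesis, went in both directions: 4 of 21 rose and 1 fell (median 0.04; 8 and 5 with the replicate block). FOSL2, a partner of JUN in AP-1, read 1960, 2220, 2207 and 1846 with vehicle and 5166, 4033, 5323 and 3757 with GS-5759 (1.13 ± 0.12; adjusted p = 2.12e-08). MAFF rose by 1.47 ± 0.26 (adjusted p = 0.000263), MYC by 0.77 ± 0.14 (adjusted p = 0.000539) and KLF6 by 0.58 ± 0.11 (adjusted p = 0.000387). EGR1, a zinc finger factor induced by growth factors through ERK, was the member that fell. It read 2000, 1698, 1487 and 1472 with vehicle and 921.7, 596.1, 696.8 and 360.2 with GS-5759, with no overlap, and fell by 1.41 ± 0.19 on the log2 scale (to 0.376 of vehicle; adjusted p = 4.83e-06). The related EGR3 gave -0.26 (adjusted p = 0.681) and EGR4 -0.34 (adjusted p = 0.0632).

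Inhibitors of MAP kinase signalling had 4 of 21 risen and none fallen (median 0.18; 8 with the replicate block). TRIB1, a pseudokinase that brings substrates to a ubiquitin ligase, read 359.2, 548.8, 351.7 and 437.8 with vehicle and 1496, 1502, 1144 and 1470 with GS-5759. Its treated arrays lay close together except for a lower replicate 3, and it rose by 1.70 ± 0.17 (3.25-fold; adjusted p = 1.08e-08). DUSP4, another MAP kinase phosphatase, rose by 0.94 ± 0.12 (adjusted p = 2.14e-06) and SPRY2, an inhibitor of receptor tyrosine kinase signalling, by 0.86 ± 0.22 (adjusted p = 0.0228). SPRY2 lost its call in 4 of the 8 fits without 1 array (adjusted p up to 0.165). It was called with the replicate block (adjusted p = 6.15e-05) and without replicate 3 in all groups (adjusted p = 0.000486). Without replicate 1, 2 or 4 in all groups SPRY2 was not called. MAP3K8, a kinase upstream of ERK, rose from 220.9, 215.6, 253.2 and 245.7 to 711.4, 680, 812.8 and 612.3 (1.52 ± 0.15; adjusted p = 1.08e-08).

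Other large rises had varied functions. ITPRIP, which binds the inositol trisphosphate receptor, read 654.1, 614, 604.8 and 515.4 with vehicle and 3221, 2373, 2850 and 2265 with GS-5759 (2.13 ± 0.22; adjusted p = 1.08e-08). BDNF, a neurotrophin gene with several promoters, rose from 927.6, 770.8, 364.2 and 743.1 to 3331, 2913, 2009 and 2928 (2.02 ± 0.31; adjusted p = 4.52e-05). The zinc finger gene ZNF331 rose by 1.97 ± 0.26, the complement receptor C5AR1 by 1.80 ± 0.31 and CPEB4, which binds polyadenylation elements of mRNAs, by 1.77 ± 0.24, each without overlap between groups. Of 3 other probe sets of CPEB4, 2 rose by 1.85 and 1.64 and the third, of the type that can cross-hybridise, gave -0.12 (adjusted p = 0.751). Secreted growth factors had 3 of 19 risen (median 0.28; 7 risen and 1 fallen with the block), led by EDN1, the vasoconstrictor endothelin-1, from 1078, 1133, 660.8 and 1059 to 3355, 3003, 2803 and 3033 (1.65 ± 0.17; adjusted p = 1.43e-08). The Wnt antagonist DKK1 rose by 0.97 ± 0.20 and VEGFC by 0.62 ± 0.13.

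HRK and BCL2L11, BH3-only genes whose products promote apoptosis, were the 2 members of the BCL2 family called (of 14; median 0.07; 3 risen and 2 fallen with the block). HRK read 161.9, 260.8, 84.05 and 266.7 with vehicle and 664, 834.2, 487.6 and 912 with GS-5759 (1.90 ± 0.42; adjusted p = 0.00546). BCL2L11 rose by 1.28 ± 0.36 (adjusted p = 0.0428), but its groups overlapped and its call was lost in 5 of the 8 fits without 1 array (adjusted p up to 0.228). With the replicate block BCL2L11 was called (adjusted p = 9.97e-10). Of its 6 other probe sets, 5 gave differences from 0.63 to 1.49, 1 of them called (0.93; adjusted p = 0.047), and the sixth gave 0.01. Among transporters, SLC7A2, a carrier of cationic amino acids, rose from 757.7, 661, 596.5 and 789 to 2345, 1823, 1974 and 2098 (1.54 ± 0.18; adjusted p = 1.1e-07), and SLC7A1 rose by 0.39 ± 0.09. These were 2 of 13 SLC7 and SLC38 genes (median 0.13), with 5 called under the replicate block and 5 without replicate 3. The glucose transporter SLC2A3 rose from 730.8, 872, 408 and 660 to 2598, 2054, 1558 and 1624 (1.55 ± 0.29; adjusted p = 0.00062).

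**Figure D3:**
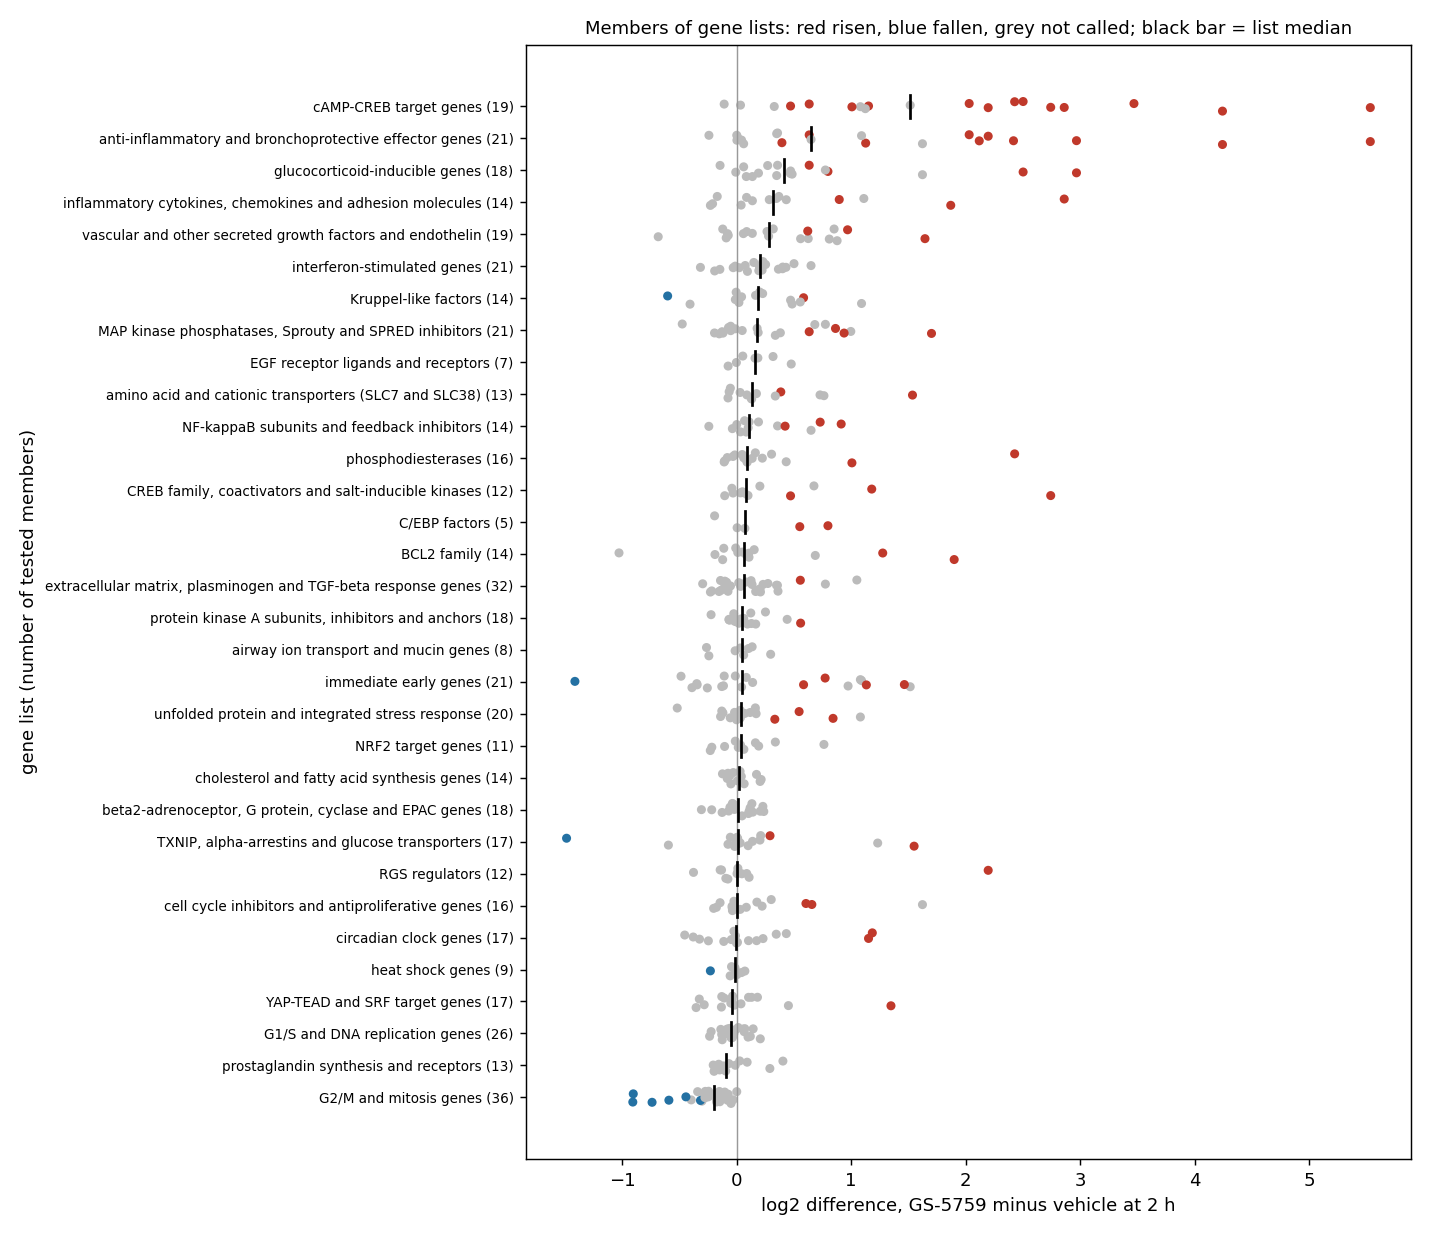
Log2 differences between GS-5759 and vehicle at 2 h (x axis) of the tested members of each gene list (y axis, number tested in parentheses), sorted by list median, which the black bar marks. Red members had risen, blue had fallen and grey were not called. The cAMP-CREB list has the highest median (1.52) and the G2/M and mitosis list the lowest (-0.20).

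TXNIP led the falls. Its product binds thioredoxin and is an arrestin relative that lowers glucose uptake. It read 3490, 3700, 2856 and 3550 with vehicle and 1362, 1460, 794.6 and 1302 with GS-5759, and fell by 1.49 ± 0.22 on the log2 scale (to 0.357 of vehicle; adjusted p = 1.82e-05). Replicate 3 was the lowest in both groups, and the difference was -1.37 without it. Of 17 alpha-arrestins, glucose transporters and their regulators, TXNIP alone fell (median 0.01; 3 risen and 2 fallen with the replicate block), while SLC2A3 and MLXIP rose. MLXIP, a glucose-sensing factor known to drive TXNIP, rose by 0.29 ± 0.07 (adjusted p = 0.00651). This call was lost without replicate 1, without replicate 3 (adjusted p = 0.0667) and without replicate 4. Another tested MLXIP probe set gave 0.23 (adjusted p = 0.0598).

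Genes of G2 and mitosis had 6 of 36 fallen and none risen, where 0.833% of all genes tested had fallen. Of the 36 differences 1 was above 0, and the median was -0.20, against -0.01 over all genes. CCNF, cyclin F, read 607.2, 795.1, 578.1 and 695.6 with vehicle and 388.9, 404.7, 241.5 and 378.6 with GS-5759 (-0.91 ± 0.15; adjusted p = 0.000172). BORA, an activator of the kinase Aurora A, read 904.3, 854.3, 927.9 and 748.6 against 565.7, 470.9, 368.2 and 419.2 (-0.90 ± 0.12; adjusted p = 4.02e-06). Both were lowest on treated replicate 3 and neither overlapped between groups. HJURP, which loads the centromere histone CENPA, fell from 2732, 2310, 2389 and 2070 to 1915, 1375, 1146 and 1311 (-0.74 ± 0.13; adjusted p = 0.000329).

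AURKA, the gene of Aurora A (-0.59 ± 0.15; adjusted p = 0.0153), CENPA (-0.44 ± 0.12; adjusted p = 0.033) and HMMR, a spindle protein (-0.32 ± 0.08; adjusted p = 0.027), also fell. Each of these 3 lost its call without 1 of several arrays, GS-5759 replicate 3 among them (adjusted p up to 0.153), and the CENPA groups overlapped. Without replicate 3 the list had 3 fallen members, with the replicate block 15. FAM83D and PSRC1, which are not on the list and whose products act at the spindle, fell by 0.66 ± 0.12 and 0.71 ± 0.14. The list of G1/S and DNA replication genes had none called of 26 (median -0.05), also with the replicate block. DBF4, the activating subunit of the replication kinase CDC7, is not on that list and fell from 2550, 2394, 2694 and 2213 to 1643, 1597, 1497 and 1619 (-0.62 ± 0.10; adjusted p = 0.000148). Among cell cycle inhibitors, the antiproliferative genes TOB1 and BTG1 rose, by 0.66 ± 0.09 and 0.61 ± 0.11, as 2 of 16 tested (median 0.01; 4 with the block). Cell numbers and cycle phase were not measured, and in such bulk samples a change in the make-up of the cells and a change of RNA per cell cannot be told apart.

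Some of the other large falls had low signals. ANKRD34A read 112.5, 112.4, 86.7 and 102.6 with vehicle and 52.9, 62.2, 54.9 and 53.3 with GS-5759 (-0.73 ± 0.10; adjusted p = 7.55e-06). SLC22A9, an organic anion transporter gene, fell by 0.60 ± 0.12, and a probe set annotated as Igk fell by 0.74 ± 0.15, with highest signals of 202.4 and 101.1. TRIM59, a ubiquitin ligase gene with a lowest signal of 1744, fell by 0.63 ± 0.12 (adjusted p = 0.00122). NKAIN4, GARIN5A and KLF7 fell by 0.65 ± 0.19, 0.62 ± 0.17 and 0.60 ± 0.16, but each lost its call in at least 4 of the 8 fits without 1 array (adjusted p up to 0.329) and without replicate 3. KLF7 was the Kruppel-like factor that fell while KLF6 rose, of 14 tested (median 0.18; 6 risen and 1 fallen with the block), and of 4 other KLF7 probe sets 2 fell, by 0.47 and 0.49, and 2 gave 0.05 and 0.02. Probe sets of the type that can cross-hybridise made up 14.2% of the fallen genes, 2.17% of the risen and 6.79% of all tested.

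Calls in the remaining lists are read against the 1.6% of all genes tested that had risen and the 0.833% that had fallen. For counts with the block these shares were 5.27% and 4.05%. The unfolded protein response had 3 of 20 risen, HERPUD1 (0.55 ± 0.10), ERN1 and DNAJB9 (median 0.03; 5 with the block). ERN1 was not called after centring on the 75th percentile or quantile normalization, nor DNAJB9 after quantile normalization, and each lost its call in at least 5 of the 8 fits without 1 array. With the replicate block both were called (adjusted p = 4.11e-08 for ERN1 and 0.0045 for DNAJB9). Circadian clock genes had 2 of 17 risen (median -0.001; 2 fallen with the block), BHLHE40 and NFIL3 (1.19 ± 0.33; adjusted p = 0.0423). NFIL3 lost its call in 5 of the 8 fits without 1 array and was called with the block (adjusted p = 5.14e-07). CCN2, a matricellular target of YAP, rose from 2583, 2948, 2054 and 2256 to 6519, 5886, 7132 and 5496 (1.35 ± 0.27; adjusted p = 0.00193), alone among 17 YAP-TEAD and SRF targets (median -0.04; 3 risen and 3 fallen with the block). PLAUR, the urokinase receptor, was the 1 risen gene of 32 in matrix and plasminogen biology (median 0.06; 6 with the block), and DNAJB1 the 1 fallen of 9 heat shock genes (-0.23 ± 0.06; adjusted p = 0.0317, lost in 4 of the 8 fits and without replicate 3). CEBPD and CEBPB (0.55 ± 0.12) were 2 risen of 5 C/EBP factors. No gene was called in the lists of interferon-stimulated genes (21 tested; median 0.20), cholesterol and fatty acid synthesis (14; 0.02), NRF2 targets (11; 0.03), ligands and receptors of the EGF family (7; 0.16), and mucins and ion channels of the airway (8; 0.05). With the replicate block these lists had 2, 1, 1, 2 and 0 risen genes. The epithelial, basal, ciliated and club, fibroblast, leukocyte and endothelial marker lists and 10 reference genes had no call either. With the block, 2 epithelial genes had risen (KRT7 and CLDN1), and 1 endothelial marker (VWF, of 3 tested) and 1 reference gene (TBP) had fallen. The summed signal of the reference genes was 91380 to 96050 with vehicle and 89080 to 92710 with GS-5759.

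The response at 2 h was set against those at 1, 6 and 18 h, each with its own vehicle arrays. At 1 h 37 genes had risen (0.257%) and 2 had fallen (0.0139%), at 6 h 149 (1.03%) and 79 (0.548%), and at 18 h none was called in either direction by limma. Of the 230 genes risen at 2 h, 36 were also called risen at 1 h, 56 at 6 h and none at 18 h, and 144 were called at 2 h alone. Their median difference was 0.21 at 1 h, 0.31 at 6 h and 0.03 at 18 h, and since the genes were chosen by their values at 2 h, the order of these medians is no finding. Of the 120 fallen genes, none was called fallen at 1 h and 7 were at 6 h. A call at one time and not at another is no test of a difference, so the responses were compared directly.

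Between 1 and 2 h, 8 genes had a larger response at 2 h (0.0555%) and none a smaller, and all 8 were among the risen. The 2 h arrays enter both tests, so this overlap is no finding. SLC7A2 stood at 0.18 at 1 h and 1.54 at 2 h (difference 1.36), and BCAR3, an adaptor protein of integrin signalling, at 0.08 and 0.97 (0.89). RIMKLB, FIGN, an AAA ATPase that severs microtubules, and SIRPA, a receptor for CD47, differed by 0.82, 0.74 and 0.70. BCAR3 returned to 0.13 at 6 h, whereas SLC7A2 remained at 1.94. The count was 115 with the replicate block (104 larger, 11 smaller), between 2 and 6 when 1 array was left out, and between 0 and 18 without 1 replicate number.

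Between 2 and 6 h, 15 genes had a higher difference at 6 h (0.104%) and 12 a lower one (0.0833%), 27 in all, against 307 with the replicate block. Of the 12, 11 had been called risen at 2 h, and the other, DENND1A, stood at 0.19 (adjusted p = 0.29). Here too the 2 h arrays enter both tests, and nothing is read from the overlap. SGK1 went from 2.50 to 0.71 (difference -1.79), ITPRIP from 2.13 to 0.73 (-1.40), EDN1 from 1.65 to 0.35 (-1.30), MAP3K8 from 1.52 to 0.25 (-1.27) and TRIB1 from 1.70 to 0.45 (-1.25). Of the 120 genes fallen at 2 h, 8 had a higher difference at 6 h by this test. Among them TXNIP stood at -1.49 and then -0.05 (1.43), CCNF at -0.91 and 0.22 (1.13) and BORA at -0.90 and 0.11 (1.01). EGR1 was not called in this contrast (0.52) and was still called fallen at 6 h (-0.89; adjusted p = 0.00893). CSGALNACT1, an enzyme of chondroitin sulfate synthesis, and PDE7B were not called at 2 h, with 0.12 and 0.05, and stood at 2.86 and 2.04 at 6 h (differences 2.74 and 1.99). The count of 27 became 12 without vehicle replicate 2 at 6 h, 17 without vehicle replicate 4 at 2 h, and 16 and 17 without GS-5759 replicate 3 at 2 h and at 6 h.

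**Figure D4:**
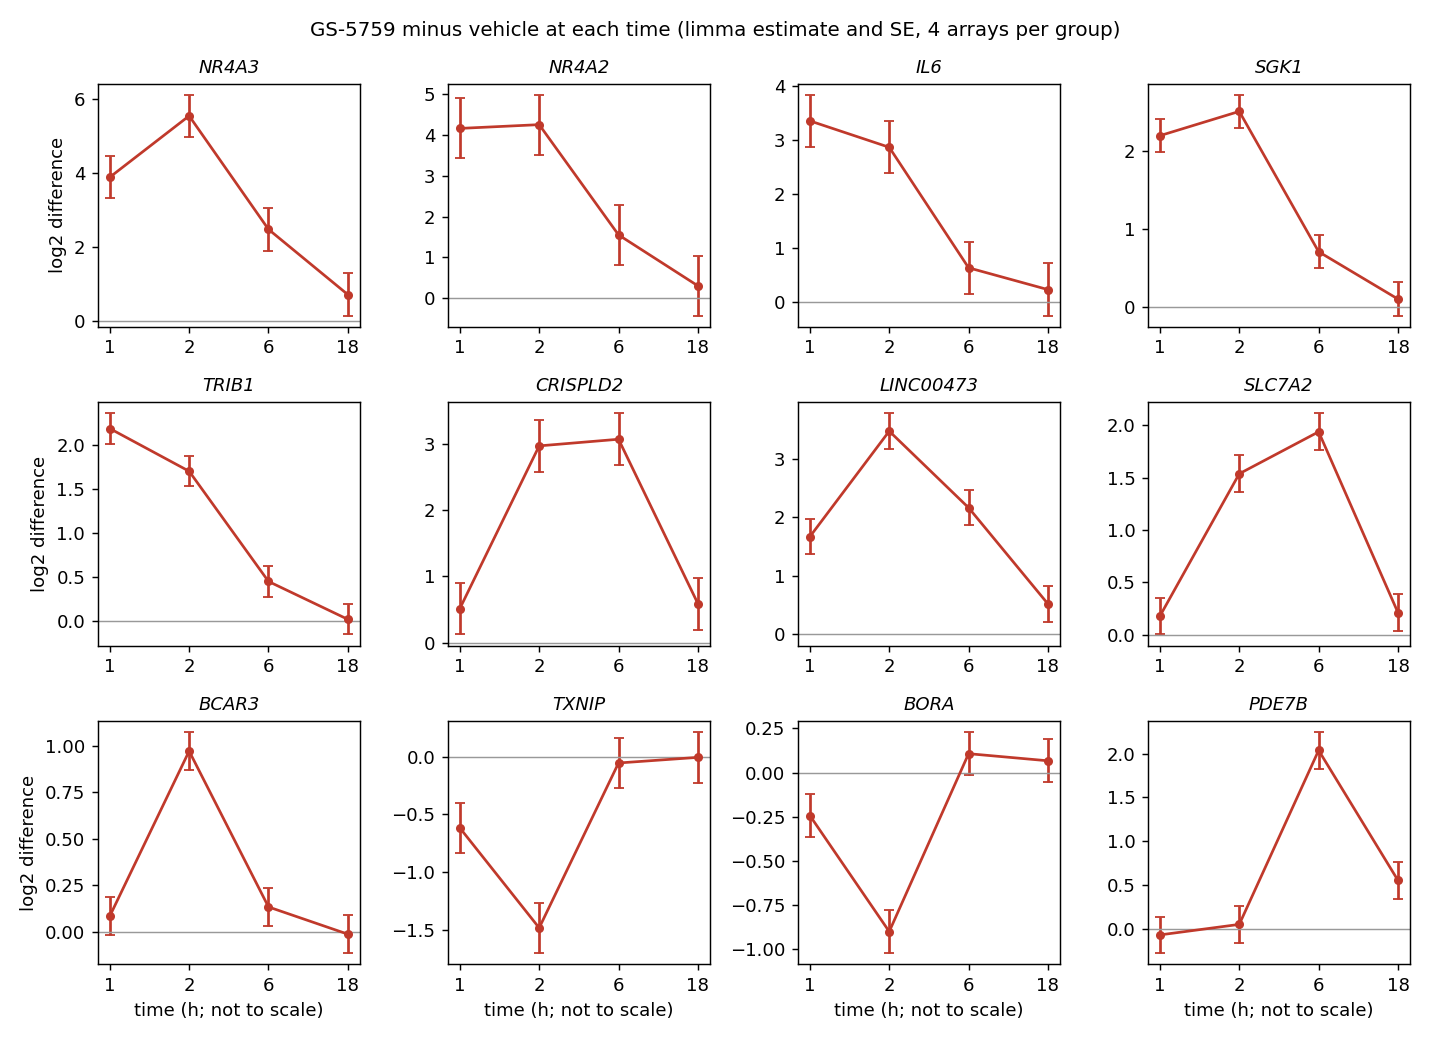
Log2 difference between GS-5759 and vehicle at 1, 2, 6 and 18 h for 12 genes, with limma estimates and SE from 4 arrays per group; the time axis is not to scale and each panel has its own y axis. IL6 and TRIB1 are highest at 1 h, BCAR3, TXNIP and BORA are farthest from 0 at 2 h, and PDE7B rises after 2 h.

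GS-5759 was compared at 2 h with Ind/GSK, both with a β2-agonist and a PDE4 inhibitor activity at 10 nM, once in 1 molecule and once in 2. No gene of 14409 was called (0%) by limma; 273 had an unadjusted p under 0.05, and 831 did with the replicate block, which also called none (smallest adjusted p 0.833). The median difference over all genes was 0.05. Among the 350 genes called against vehicle, GS-5759 minus Ind/GSK ran from -0.45 to 0.27. Its 95% interval lay within 1 log2 unit on either side of 0 in 346 of them and within 0.5 in 285. For NR4A3 the difference was 0.08 (-1.08 to 1.23), for SGK1 0.11 (-0.33 to 0.54), for TRIB1 0.13 (-0.22 to 0.48) and for TXNIP -0.03 (-0.47 to 0.42). A difference of up to about the interval's bound is thus not excluded for single genes, and the test does not show that the treatments act alike. The interval was wide for NR4A2 (-1.38 to 1.58).

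The median of GS-5759 minus Ind/GSK was 0.06 in the 230 risen genes and 0.01 in the 120 fallen. These genes were chosen by their values on the same GS-5759 arrays, so nothing is read from either. After quantile normalization the median over all genes was 0.003 and after centring on the 75th percentile -0.009, with no gene called under either. The largest differences in each direction, none called, were in genes of scattered signal: ZNF749 (0.75), SVOP (0.55) and B3GALT4 (0.53) were higher with GS-5759, and TVP23A (-0.69), KCNJ11 (-0.55) and SLC12A1 (-0.55) lower. TVP23A read 94.7, 339.4, 55.1 and 206.6 with GS-5759 and 151.3, 195.4, 325.4 and 337.4 with Ind/GSK. With vehicle it read 381.3, 296.9, 367.1 and 296.6. The GS-5759 arrays overlapped with both other groups. Both treatments were set against the same vehicle arrays, so their responses to vehicle are not independent: NR4A3 stood at 5.53 and 5.46, IL6 at 2.86 and 2.75, PDE4D at 2.43 and 2.42 and TXNIP at -1.49 and -1.46 with GS-5759 and Ind/GSK.

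**Figure D5:**
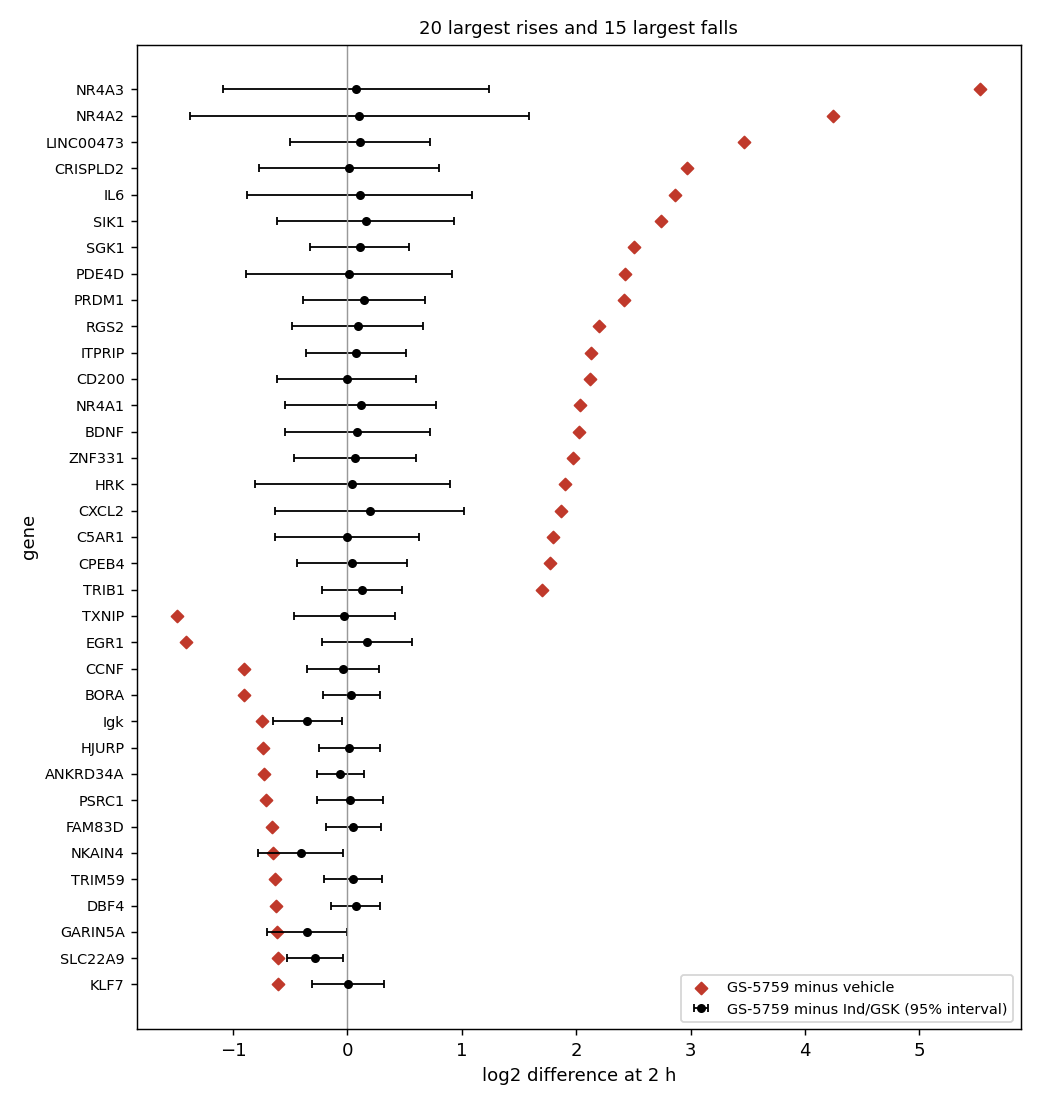
For the 20 largest rises and 15 largest falls at 2 h, red diamonds give the log2 difference between GS-5759 and vehicle and black points the difference between GS-5759 and Ind/GSK with its 95% interval (x axis; genes on the y axis). The black points lie between -0.41 and 0.19, and the widest interval is that of NR4A2, -1.38 to 1.58.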

How the data were processed

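RNA of BEAS-2B cells had been hybridised to Affymetrix U133 Plus 2.0 arrays, 48 in all, 8 of which form the main comparison. Per the submitters' processing notes, the authors made probe set values with PLIER in Affymetrix Expression Console; versions, and any normalization between arrays, are not given in the sources used here. The deposited values are intensities on a linear scale and were used as deposited, after log2(value + 16).

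The arrays hold 54675 probe sets, of which 62 are controls. A single gene symbol was given for 41091, several for 1801 and none for 11721. Symbols came from the platform annotation, 41037 of them updated through gene identifiers. Each of 19775 genes was represented by its single-symbol probe set of highest mean signal, and the 14409 above the 40th percentile of the mean level of all non-control probe sets were tested. A model of 12 group means was fitted to the 48 arrays (limma version 3.58.1, lmFit and eBayes, under R version 4.3.3; 36 residual degrees of freedom, prior 2.371), with Benjamini-Hochberg adjustment within each contrast. Files were read with data.table (version 1.17.8), and Python 3.11.15, pandas 2.3.3 and matplotlib 3.10.9 were used for promoters and figures. The fit was tested on simulated data with known changes.

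Same-numbered GS-5759 and vehicle arrays correlated at 0.32, 0.80, 0.87 and 0.75 over genes after group means were removed, all above the minimum of 0.1, so the numbers were taken to pair the arrays, and list counts with the number as a block are given where they differ. Different numbers reached 0.73. SEs, intervals and calls of single genes are from the fit without the block unless it is named. Their spread includes that between replicate numbers. The SE of PDE4D was 0.44 without the block and 0.18 with it, and that of Igk 0.151 and 0.152. A gene not called in the main fit may thus still have responded. The labels do not state that replicates were separate cultures, so the spread behind each p-value is that between these samples and may be technical. The number of arrays limits the precision.

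The comparison, the gene lists and the rule for named genes were chosen with earlier results of these data known. Named were the 20 largest rises and 15 largest falls without overlap between groups, up to 6 called members of each list, the PDE4 and NR4A genes, the 5 largest called genes in each direction of the other contrasts, and, where none was called, the 3 largest differences. Alternatives were other scalings (75th percentile, quantile), pseudocounts (1, 64) and filters (none, 60th percentile), all probe sets, the replicate block, only the arrays compared, eBayes with trend and robust, and fits without each array or replicate number.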

Additional observations from a re-analysis of the deposited data

Results flagged for a closer look

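Among 174 groups of 4 arrays (87 named genes, vehicle and GS-5759), 10 had 1 array whose distance from the nearest other array was, as a share of the group's range, above the 95% critical value of Dixon's test, which chance passes in about 1 of 20 groups. Replicate 3 was that array in 9 of the 10 and replicate 1 in the other, and 3 were in vehicle and 7 in GS-5759. With vehicle, replicate 3 was low in CD200 (435.2) and EDN1 (660.8) and high in C5AR1 (69.08). With GS-5759, replicate 3 was low in TRIB1 (1144), CCNF (241.5), NKAIN4 (76.53), DNAJB1 (3314) and KCNJ11 (12.53) and high in REL (1101), and replicate 1 was high in CRISPLD2 (3344). Without replicate 3 the differences were 2.02 for CD200, 1.72 for TRIB1 and -0.81 for CCNF, each still called, whereas NKAIN4 (-0.33; adjusted p = 0.402) and DNAJB1 (-0.18; adjusted p = 0.159) were no longer called by limma.

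The response to GS-5759 differed between times, by the limma test of the difference itself, in these genes. From 1 to 2 h it was higher in SLC7A2 (1.358), BCAR3 (0.8857), RIMKLB (0.8192), FIGN (0.7372) and SIRPA (0.6975). From 2 to 6 h it was higher in CSGALNACT1 (2.735), PDE7B (1.988), TXNIP (1.43), CCNF (1.13), BORA (1.009) and HJURP (0.9101). It was lower at 6 h in SGK1 (-1.793), ITPRIP (-1.397), EDN1 (-1.298), MAP3K8 (-1.269), TRIB1 (-1.254) and BCAR3 (-0.8363).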

How the results depend on the processing

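Of the 78 named genes called, 61 were called in all 8 fits without 1 of the compared arrays, and none of the 78 changed direction under the alternatives run. Among the 9 not called, CSGALNACT1 (0.12) and PDE7B (0.05) ran from -0.05 to 0.23 and from -0.11 to 0.15 without 1 array, and PDE7B was -0.02 without replicate 3. With only the compared arrays 35 of the 78 lost their call, EGR1, CCNF, HJURP, DUSP1, HRK and CXCL2 among them, and 28, 19, 9 and 17 did without replicates 1 to 4. Without at least 1 array, 17 lost their call: 15 without GS-5759 replicate 3 (all but ERN1 and AKAP12), 8, 4 and 6 without GS-5759 replicates 1, 2 and 4, and 11, 7, 7 and 9 without vehicle replicates 1 to 4. With all probe sets, 488 of 27115 probe sets rose, a count of probe sets and not of genes. Genes risen (230) and fallen (120) numbered 760 and 584 with the replicate block, 677 and 1300 with the block and 75th percentile centring, and 89 and 15 with only the compared arrays, which leaves fewer arrays to estimate the spread. Fallen genes numbered 277 and 233 under 75th percentile centring and quantile normalization. Without 1 array or 1 replicate number, risen genes ranged from 100 to 290 and fallen genes from 42 to 107. The block changed no call among the named genes to not called.

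For the response at 2 h against 1 h (8 genes), 75th percentile centring, a pseudocount of 1 and no filter each left 3, all probe sets 5, the block 115, the block with centring 111 and only the compared arrays 1, and leaving out gave 0 to 18. For 6 h against 2 h (27 genes) the counts were 41 with centring, 58 with quantile normalization, 45 with all probe sets, 307 with the block, 524 with the block and centring and 6 with only the compared arrays, and leaving out gave 4 to 36. Against Ind/GSK, every setting run called none. The cause of these shifts was not tested. Genes of low signal are limited by background: a level below 75.42 was not tested.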

Other observations

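Some large differences did not pass the test in the main fit, which leaves out the replicate number. Absence of a response is not shown by this. PDK4, a kinase that inhibits pyruvate dehydrogenase, gave 3.15 ± 1.43 (adjusted p = 0.341), the transcriptional coregulator MN1 2.04 ± 1.02 (adjusted p = 0.425), the organic anion transporter SLCO4A1 1.85 ± 0.69 (adjusted p = 0.188) and LPL, lipoprotein lipase, 1.73 ± 0.55 (adjusted p = 0.0944), all by limma. These 4 were picked after their values were seen.

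Probe sets outside the gene-level comparison also responded. In a fit over all non-control probe sets above the signal limit, 30 of 4389 without a gene symbol rose and 34 fell (1.46% called), and 16 of 1264 with several symbols rose and 5 fell (1.66%), against 2.39% of those with 1 symbol. Of the 230 risen genes, 152 had another tested probe set, 259 in all, of which 235 differed in the same direction and 160 were called in it, with 1 called in the opposite one. For the fallen genes these numbers were 53 genes, 88 probe sets, 77 in the same direction, 22 called and 1 called in the opposite one.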
